A study of Mus musculus with 8 samples.

Results

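Heat-shock proteins, chaperonins and the folding machinery of the endoplasmic reticulum (ER) were followed through 4 spatial comparisons of the mouse uterus. Members were all genes whose symbol belonged to the HSP90, HSP70, HSP110, J-domain, CCT chaperonin, prefoldin, BAG, protein disulfide isomerase or FKBP families, plus Hspb1, Hspd1, Hspe1, Calr, Canx, Sdf2l1, Hyou1, Stip1 and St13. Of 107 genes in the GENCODE annotation that meet this naming rule, 67 were among the 5828 genes listed, and the other 40, Hspa1a, Hyou1 and Sdf2l1 included, were not analysed here. The choice used names and no measured value, though the rule was set with earlier results of these data known. All 67 had an average above 1 on the deposited scale in at least 1 group of a table, so a weak member could enter a comparison through the group where it was higher. Every comparison listed 31 of them, 6 were listed in 3 comparisons, 9 in 2 and 21 only in KO against WT epithelium.

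The study placed sections of uterus on Visium slides, which capture polyadenylated RNA in spots that each hold several cells or parts of cells. The 4 wild-type females (WT) were EZ fl/fl, carrying floxed Ezh2 without Cre, and the 4 knockout females (KO, Ezh2cKO) were EZ fl/fl; Prcre/+, in which Cre is driven by the progesterone receptor gene. Both genotypes were of mixed C57BL/6 and 129SvEv strain, with 1 female of each drawn from each of 4 litters. All had been ovariectomized at postnatal day 71 ± 4 and their uteri were taken at day 112 ± 11, so both genotypes lacked ovarian hormones. The progesterone receptor is known to be expressed in epithelium, stroma and muscle of the uterus, so Cre could act in all of them, which was not checked here. Ezh2 itself, which encodes a histone methyltransferase of the Polycomb repressive complex, was not analysed here, so its loss was not checked in these values.

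Spots were compared as epithelium and as stroma, and each gene had 1 pooled value per genotype and compartment, with no value per animal. Pooled counts of unique molecular identifiers (UMIs, single captured RNA molecules) came to 1428541 over the listed genes for WT epithelium, 1552958 for KO epithelium, 416747 for WT stroma and 947663 for KO stroma. Levels below are UMIs divided by relative depth, with the WT stroma pool as 1, WT epithelium 2.542, KO stroma 2.012 and KO epithelium 2.755. Folds are ratios of these levels, and their intervals are 95% Clopper-Pearson intervals that cover counting error only. A gene was called where the authors' adjusted p-value was under 0.05. There was no replicate check on any fold, and fewer cells of a type in a spot cannot be told apart from less RNA per cell. The compartment names were checked on keratins, claudins and other simple-epithelium genes, of which 13 of 13 listed were called higher on the epithelial side in WT and 16 of 16 in KO. How spots were assigned was not given, and if such genes were used for it this outcome was fixed in advance. The summed level of these markers was 8.25-fold higher in epithelium than in stroma in WT (13 genes) but 3.28-fold higher in KO (16 genes). The 6 markers listed in every comparison summed to 3338 UMIs in WT epithelium against 420 in WT stroma. In KO they summed to 2986 against 961.

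Molecular chaperones bind proteins that are not yet folded and keep them from clumping. In the cytosol, J-domain proteins hand clients to HSP70, prefoldin passes actin and tubulin to the ring-shaped CCT chaperonin, and HSP90 with its FKBP partners matures signalling proteins, steroid receptors among them. In the ER, BiP, calnexin, calreticulin and the disulfide isomerases fold secreted and membrane proteins. In the mouse uterus this machinery is tied to hormone action: FKBP52, the product of Fkbp4, is an HSP90 co-chaperone that the progesterone receptor needs for normal uterine function.

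Some members carry known regulatory letters in their promoters, shown here because the ER folding genes and the heat-shock genes are followed separately below. RefSeq promoters (GRCm38.p6, 250 bases before to 50 after the start) were given for 56 of the 67 members and 27025 genes in all, and both strands were searched. The ER stress element, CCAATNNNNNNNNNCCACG, which is known to be bound by ATF6 together with NF-Y, was found in 6 members (10.7%), Calr, Canx, Dnajc3, Hsp90b1, Hspa5 and Pdia6, and in 37 of all genes (0.137%). In the following 40-base stretches the capitals mark the fixed letters of the element, which in Calr and in the nearer of a pair of matches in Hsp90b1 lies on the reverse strand.
Hspa5 (chr2:34772015-34772054, plus strand): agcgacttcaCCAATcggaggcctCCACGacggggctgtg
Calr (chr8:84847064-84847103, minus strand): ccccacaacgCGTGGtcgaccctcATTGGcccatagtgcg
Hsp90b1 (chr10:86705522-86705561, minus strand): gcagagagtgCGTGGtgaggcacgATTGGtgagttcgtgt
Canx (chr11:50325789-50325828, minus strand): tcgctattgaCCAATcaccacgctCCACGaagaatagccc
Pdia6 (chr12:17266481-17266520, plus strand): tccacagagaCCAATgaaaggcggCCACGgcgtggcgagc
The element ended 46 bases before the start of Hspa5, 79 before Pdia6, 88 before Hsp90b1, 126 before Canx and 143 before Calr.

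Heat shock elements, the alternating GAA and TTC units that heat shock factors are known to bind, were searched in a form of 3 units, GAANNTTCNNGAA, and a form of 2 units, GAANNTTC, which every match of the longer form contains. The 3-unit form was in 4 members (7.14%), Dnajb6, Hspd1, Hspe1 and Hsph1, and in 179 of all genes (0.662%). The 2-unit form was in 10 members (17.9%), these 4 with Bag3, Cct2, Dnaja1, Fkbp4, Hspa1b and Hspb1, and in 2442 of all genes (9.04%). Capitals again mark the fixed letters.
Hspd1 (chr1:55088045-55088084, minus strand): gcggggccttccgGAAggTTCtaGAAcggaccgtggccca
Hspe1 (chr1:55088051-55088090, plus strand): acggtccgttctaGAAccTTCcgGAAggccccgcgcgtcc
Hspb1 (chr5:135887806-135887845, plus strand): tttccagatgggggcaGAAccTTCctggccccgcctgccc
Fkbp4 (chr6:128438784-128438823, minus strand): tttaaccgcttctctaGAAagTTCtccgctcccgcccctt
Hspd1 and Hspe1, which encode the paired HSP60 and HSP10 of the mitochondrial folding chamber, are transcribed away from each other, and the overlapping stretches shown for them are opposite strands of the same DNA. These matches describe letters in a window and were not measured as binding sites.

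The summed level of the 31 members listed everywhere differed less between pools than single members such as Fkbp9, Fkbp4 and Hspb1 did. It was 6963.2 UMIs for WT epithelium, 6893.3 for KO epithelium, 6356 for KO stroma and 5659 for WT stroma. As a share of the UMIs of the 1167 genes listed in every comparison this was 1.88% for WT epithelium, 1.78% for KO epithelium, 1.64% for KO stroma and 1.49% for WT stroma, so the WT stroma pool was the lowest on both measures. In the plot of levels by pool, WT stroma was also the lowest for the most captured members, Hspa8 and Hsp90ab1, and it was the highest for others such as Fkbp9 and Canx.

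**Figure D1:**
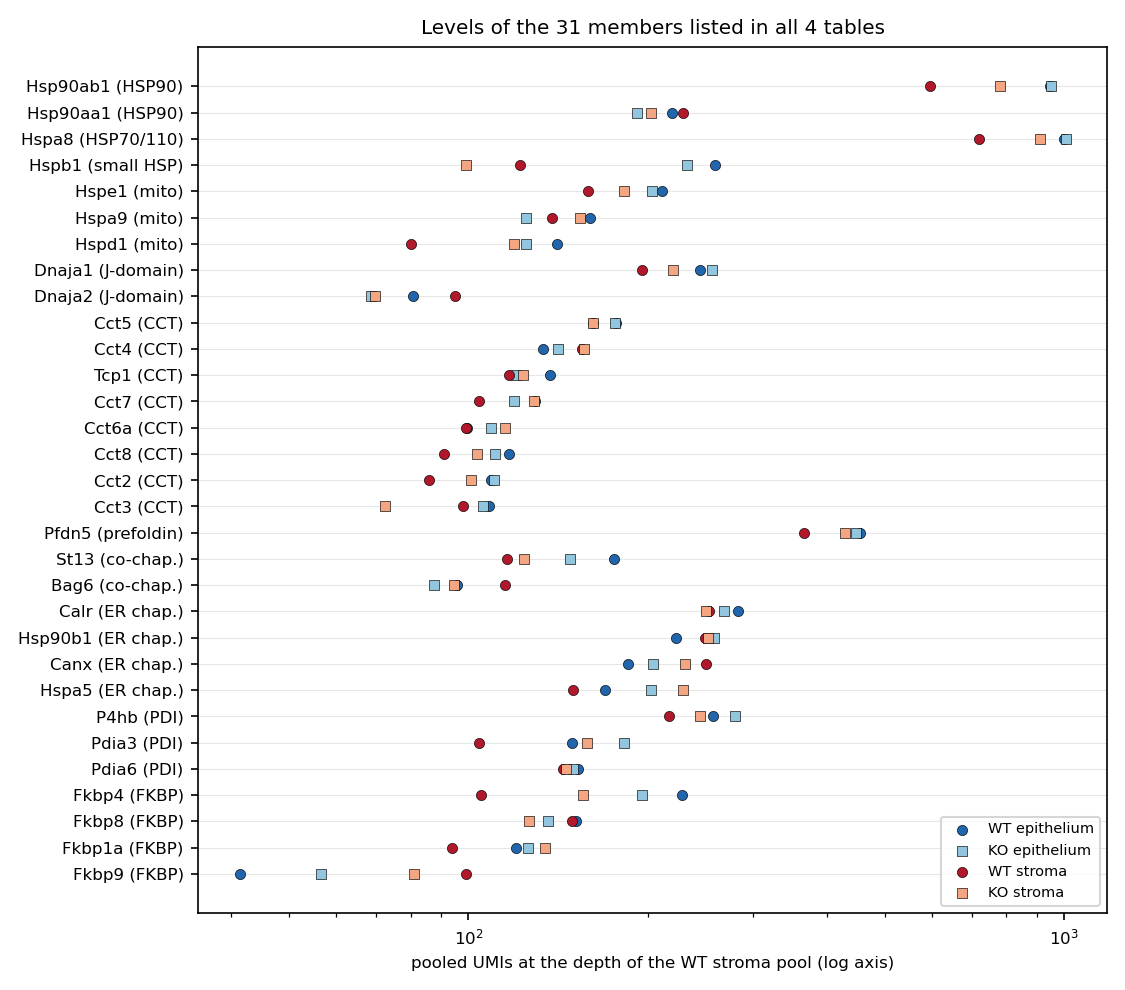
Pooled UMIs at the depth of the WT stroma pool (log axis) for the 31 members listed in all 4 comparisons, grouped by role; circles are WT and squares KO, blue shades epithelium and red shades stroma, 1 pooled value each. Hspa8 and Hsp90ab1 lie far to the right in every pool, and Fkbp9 is at 41.3 in WT epithelium against 99 in WT stroma.

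In WT uterus, epithelium carried more chaperone RNA than stroma for most members. Of 37 members listed, 5 were called higher in epithelium (Fkbp4, Hspb1, Bag1, Hspd1 and Hsp90ab1) and 1 higher in stroma (Fkbp9). These 6 were 16.2% of the members, below the 28.8% called among all 1769 listed genes, so calls were not more frequent here than elsewhere. The lean to epithelium was in direction: 29 of 37 members (78.4%) were higher in epithelium, against 50.8% of all listed genes, with a median log2 ratio of 0.31 against 0.02. Among the 31 members with both averages above 1 the median was 0.23.

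Fkbp4 lies on the minus strand of chromosome 6, at 128429735 to 128438677 (GRCm38, as for all gene positions here). Its level was 229 UMIs in WT epithelium, 195 in KO epithelium, 156 in KO stroma and only 105 in WT stroma. The WT epithelium was thus the highest pool and the WT stroma the lowest, with both KO pools between them. The WT ratio was 2.18 (1.77 to 2.71; adjusted p 0.000601 in the authors' deposited table).

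Hspb1 (chromosome 5, 135887919 to 135889563, plus strand) encodes HSP27, a small heat-shock protein that holds unfolding proteins and interacts with actin. It stood at 259 UMIs in WT epithelium and 233 in KO epithelium, against 122 in WT stroma and 98.9 in KO stroma. Both epithelial pools lay above both stromal pools. The WT ratio was 2.12 (1.75 to 2.60; adjusted p 0.00185 in the authors' deposited table).

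Bag1 (chromosome 4, 40936398 to 40948294, minus strand), a nucleotide exchange factor that makes HSP70 release its client, had levels of 117 UMIs in WT epithelium and 57 in WT stroma. Only the epithelial average was above 1, so this gene entered the comparison through its higher group. The ratio was 2.06 (1.54 to 2.78; adjusted p 0.00704 in the authors' deposited table). Hspd1 (chromosome 1, 55077835 to 55088243, minus strand) had 141 UMIs in WT epithelium and 80 in WT stroma, a ratio of 1.76 (1.38 to 2.27; adjusted p 0.0356 in the authors' deposited table). Its partner Hspe1 had 211 and 159, a ratio of 1.33 (1.11 to 1.60) that was not called (adjusted p 0.433 in the authors' deposited table).

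Of the cytosolic HSP90 pair 1 gene was called. Hsp90ab1 (chromosome 17, 45567775 to 45573271, minus strand), the constitutive form, stood at 947 UMIs in WT epithelium and 596 in WT stroma. This was a ratio of 1.59 (1.45 to 1.74; adjusted p 0.0374 in the authors' deposited table). Hsp90aa1, the stress-inducible form, stood at 220 and 229, a ratio of 0.96 (0.822 to 1.12), and the difference between both genes' ratios was not tested. Hspa8, the constitutive HSC70, had 1001 UMIs in WT epithelium and 719 in WT stroma, a ratio of 1.39 (1.28 to 1.51), yet was not called (adjusted p 0.204 in the authors' deposited table). Its counting interval excluded 1 although the authors' p did not pass.

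Fkbp9 (chromosome 6, 56832059 to 56879358, plus strand), an ER-resident prolyl isomerase, had the opposite pattern. It had 41.3 UMIs in WT epithelium, 56.6 in KO epithelium, 81.0 in KO stroma and, highest of all, 99 in WT stroma, with both stromal pools above both epithelial ones. WT stroma was 2.40-fold higher than WT epithelium (1.80 to 3.18; adjusted p 0.00104 in the authors' deposited table), and only the stromal average was above 1. Canx, the membrane-bound lectin calnexin, was the other member whose interval lay on the stromal side, at 251 UMIs against 185, a 1.35-fold difference (1.16 to 1.58) that was not called.

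By role, the CCT subunits leaned to epithelium by small amounts, with 7 of 8 higher there, a median log2 of 0.18 and none called. Cct5 had 177 UMIs in WT epithelium and 162 in WT stroma, Tcp1 137 and 117, and Cct4, the exception, 133 and 155. Of the prefoldin subunits, Pfdn5 had 455 UMIs in epithelium against 366 in stroma and Pfdn2 86.5 against 55, and Pfdn2 and Pfdn6 were listed only through their higher epithelial average. The HSP70 co-chaperone St13 was at 175 UMIs in WT epithelium and 116 in WT stroma, a ratio of 1.51 (1.23 to 1.87), and Bag6, which guards newly made membrane proteins, at 95.6 and 115. The 3 listed J-domain genes were at 245 and 196 UMIs for Dnaja1, 80.6 and 95 for Dnaja2 and 76.7 and 83 for Dnajb6, each pair given as epithelium and stroma. None of these members was called.

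ER folding genes had mostly small ratios between the WT compartments. Of 7 listed ER chaperones and disulfide isomerases, 5 were higher in epithelium and none was called, with a median log2 of 0.16. Calr, the soluble lectin calreticulin, had 284 UMIs in WT epithelium and 253 in WT stroma. Hsp90b1, the ER form of HSP90, had 223 and 250, and Hspa5, the ER HSP70 known as BiP, 170 and 150. The thiol oxidoreductase that works with the lectins, Pdia3, had 149 and 104 UMIs, a ratio of 1.44 (1.15 to 1.80) that was not called. The 5 listed members with an ER stress element had a median log2 of 0.08, with 3 of 5 higher in epithelium. The 7 listed with a heat shock element of either form had a median of 0.41, with 6 of 7 higher in epithelium. By direction these 7 lay near the 29 of 37 (78.4%) of all listed members, whose median was 0.31. Hspd1 and Hspe1, both among the 7, share the same stretch of DNA, and the difference between these classes was not tested. Immediate-early genes, which respond within minutes to handling of tissue, were higher in WT stroma for 5 of 5 listed, 3 of them called. Any part of handling in the members' ratios was not tested.

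In KO uterus the same contrast was flatter. Of 46 members listed, only Hspb1 was called (2.17%, against 9.88% of all 2744 listed genes). Members higher in epithelium numbered 30 of 46 (65.2%, against 49.2% of all genes), with a median log2 of 0.07 against -0.01. Hspb1 was 2.35-fold higher in KO epithelium than in KO stroma (2.00 to 2.77; adjusted p 0.000305 in the authors' deposited table). The KO ratio of Fkbp4 was 1.26 (1.09 to 1.45), of Hsp90ab1 1.22 (1.14 to 1.30), of Bag1 1.39 (1.13 to 1.71), of Hspd1 1.05 (0.885 to 1.24), and stroma over epithelium for Fkbp9 was 1.43 (1.14 to 1.79). For each of these 5 the ratio was nearer to 1 than in WT, and none was called in KO.

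A smaller contrast in KO was about as frequent among all genes. Among the 37 members in both contrasts, the absolute log2 ratio was larger in WT for 30 (81.1%), and among all 1737 genes in both it was larger in WT for 1354 (78%). The members' median went from 0.31 in WT to 0.07 in KO. The WT stroma pool had a relative depth of 1 against 2.012 for KO stroma, so the WT ratios carry more counting error. Its part in these shares was not tested. The 2 genotypes' contrasts were not tested against each other, since only pooled values were used.

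**Figure D2:**
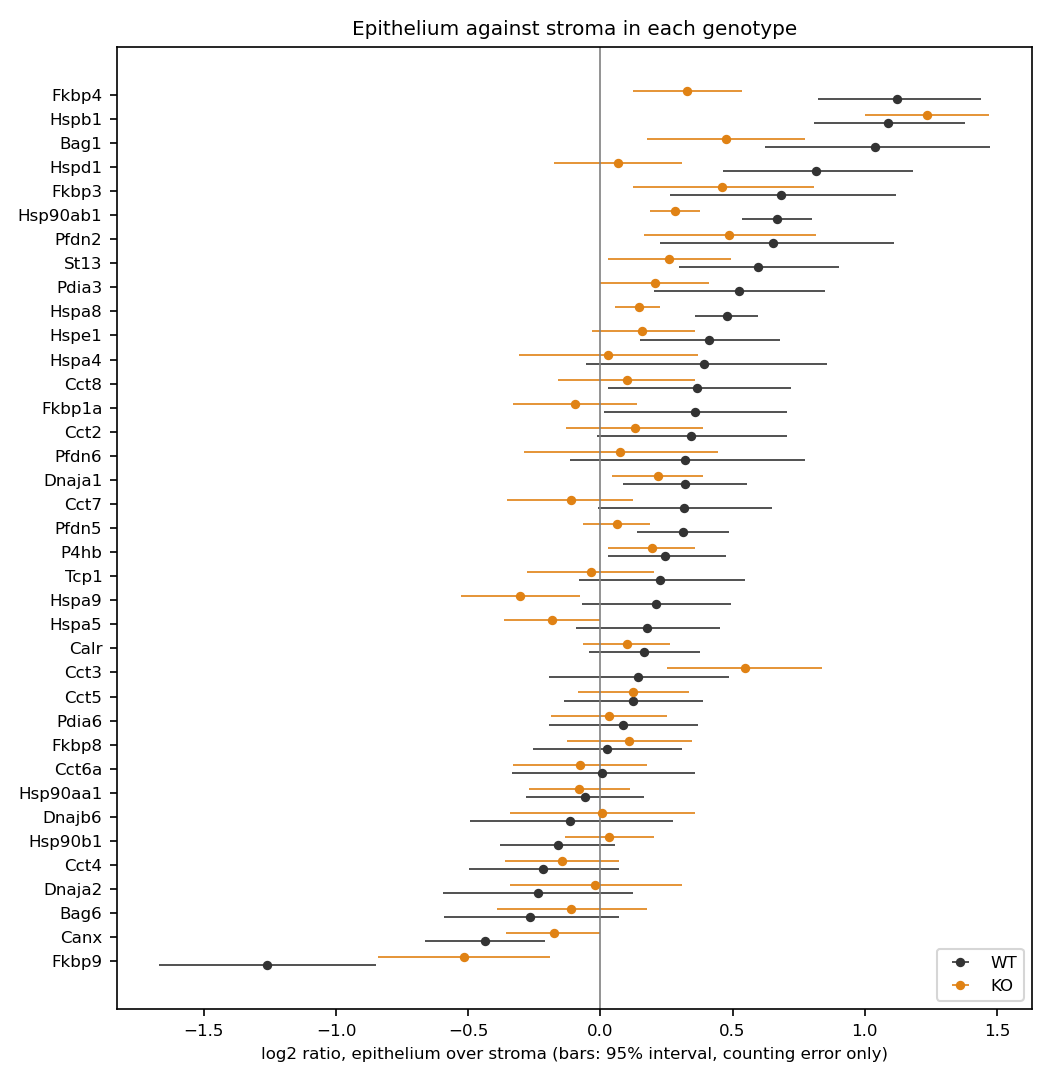
Log2 ratio of epithelium over stroma for the 37 members listed in both genotypes, black for WT and orange for KO, with 95% intervals that cover counting error only; genes are ordered by the WT ratio. Most orange points lie nearer to 0 than the black ones, while Hspb1 is above 1 in both (1.09 in WT and 1.23 in KO) and Cct3 is further from 0 in KO.

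Some other members are given here for the KO contrast, chosen by level or genotype ratio and not by their size in this contrast. Intervals excluded 1 for 11 members higher in KO epithelium and 5 higher in KO stroma, a count not set beside one over all listed genes. Cct3, a subunit of the CCT ring, had 106 UMIs in KO epithelium and 72.6 in KO stroma, a ratio of 1.46 (1.19 to 1.79), against 1.10 (0.874 to 1.40) in WT. It was not called (adjusted p 0.342 in the authors' deposited table). Hsph1, the HSP110 that acts as exchange factor for HSP70, was 1.55-fold higher in KO stroma (71.1 UMIs) than in KO epithelium (45.7; interval 1.21 to 1.99) and was likewise not called (adjusted p 0.383 in the authors' deposited table); it was not listed in the WT contrast. Hspa9, the mitochondrial HSP70 mortalin, had 125 UMIs in KO epithelium and 154 in KO stroma, against 160 and 138 in WT.

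Between genotypes, no member was called in epithelium. All 67 members were listed, the authors' deposited table gave each an adjusted p of 1, and 0.12% of all 5811 listed genes were called. Members higher in KO numbered 22 of 67 (32.8%), close to the 35.2% of all genes, and the median log2 was -0.08 against -0.10, which put the members at 0.02 once ratios were centred on the median listed gene. The members' log2 ratios ran from -0.54 to 0.98. For 5 members higher and 11 lower in KO the counting interval excluded 1, a count not set beside one over all listed genes. This balance rests on the scaling, since centring on the median listed gene made it 11 higher and 2 lower.

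The ER chaperones and disulfide isomerases lay mostly on the KO side, though none was called. Of the 8 ER chaperones and disulfide isomerases, 6 had the higher level in KO and all 8 lay above the median listed gene, with a median log2 of 0.17. Of the 59 other members, which include ER genes such as Dnajb11 and Fkbp9, 16 had the higher level in KO. Among these 59, 28 lay above the median listed gene, with a median of -0.12. The difference between the 8 and the 59 was not tested. Pdia4, a disulfide isomerase of the ER, had 28.0 UMIs in KO epithelium and 14.2 in WT, a ratio of 1.97 (1.31 to 3.02), from 77 and 36 recovered UMIs. Only its KO average was above 1, so its listing rests on the group where it was higher. Pdia3 stood at 182 UMIs in KO and 149 in WT, a ratio of 1.22 (1.06 to 1.40).

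Hspa5 had 202 UMIs in KO epithelium and 170 in WT (1.19; 1.05 to 1.36), and Hsp90b1 258 and 223 (1.16; 1.03 to 1.29). P4hb, the founding disulfide isomerase and a subunit of collagen prolyl hydroxylase, had 280 and 257 UMIs. Canx had 204 and 185 UMIs. The exceptions were Calr, with 269 in KO and 284 in WT, and Pdia6, with 150 and 153. Plasma cells are rich in ER, and their listed markers were 1.62-fold higher in sum in KO epithelium, 4 of 6 higher and none called. Those listed throughout summed to 2172 UMIs in WT epithelium, 3554 in KO epithelium, 5839 in KO stroma and, highest, 8243 in WT stroma, and their part in these values was not tested. Endometrial stroma markers were likewise 1.31-fold higher in KO epithelium, 13 of 16 higher and none called.

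Among the FKBP genes, the ER-resident Fkbp9 had 56.6 UMIs in KO epithelium and 41.3 in WT (1.37; 1.06 to 1.77). The collagen-folding isomerase Fkbp10 had 25.4 and 20.5 UMIs, and Fkbp15 22.9 and 17.7, with intervals that included 1, and both were listed only through the KO average. In contrast Fkbp4 had 195 and 229 UMIs, a WT level 1.17-fold higher (1.04 to 1.32). The remaining abundant FKBPs were at 126 and 120 UMIs for Fkbp1a, the FKBP12 that binds FK506, and at 136 and 151 for Fkbp8, a mitochondrial-membrane member.

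J-domain genes were lower in KO epithelium for 17 of 21, but 9 of 21 lay above the median listed gene, and their median log2 of -0.12 was near the -0.10 of all genes. The 3 with the lowest ratios had nearly equal log2 values of -0.54. Dnajc9, a histone chaperone, was at 26.5 UMIs in KO and 38.6 in WT. Dnajb11, an ER partner of BiP, was at 28.7 and 41.7. Dnajc13, listed only through its WT average, was at 21.4 and 31.1. Dnajc19, of the mitochondrial inner membrane, had 38.1 and 50.4 UMIs. Dnajb11, named here for its low ratio among the 21 J-domain genes, was lower in the pool where BiP itself was higher. Dnajc3, the J-domain gene with an ER stress element, was among the 4 higher in KO. It had 46.8 UMIs in KO and 43.3 in WT, with an interval that included 1. None of these genes was called. Hspa14, a ribosome-associated HSP70, had 20.0 and 27.5 UMIs, with an interval that included 1 (WT over KO 1.38; 0.955 to 2.00) and only its WT average above 1.

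Mitochondrial chaperones were lower in KO epithelium in all 3 cases, though Hspe1 lay above the median listed gene. Hspa9 had 125 UMIs against 160, a WT level 1.28-fold higher (1.11 to 1.48), Hspd1 125 against 141 and Hspe1 204 against 211. Transcripts encoded by the mitochondrial genome went the other way, 10 of 10 higher in KO (median log2 0.55), none called. The cytosolic hubs were nearly equal, with Hspa8 at 1006 UMIs in KO and 1001 in WT (ratio 1.01; 0.952 to 1.06) and Hsp90ab1 at 950.0 and 947 (ratio 1.00; 0.949 to 1.06). These intervals were the narrowest of the family in this comparison. All 5 prefoldin subunits were lower in KO by a median log2 of -0.12, but Pfdn2 and Pfdn5 (446 UMIs against 455) lay above the median listed gene. Immediate-early genes were higher in KO epithelium for 8 of 13 (median log2 0.19), none called.

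**Figure D3:**
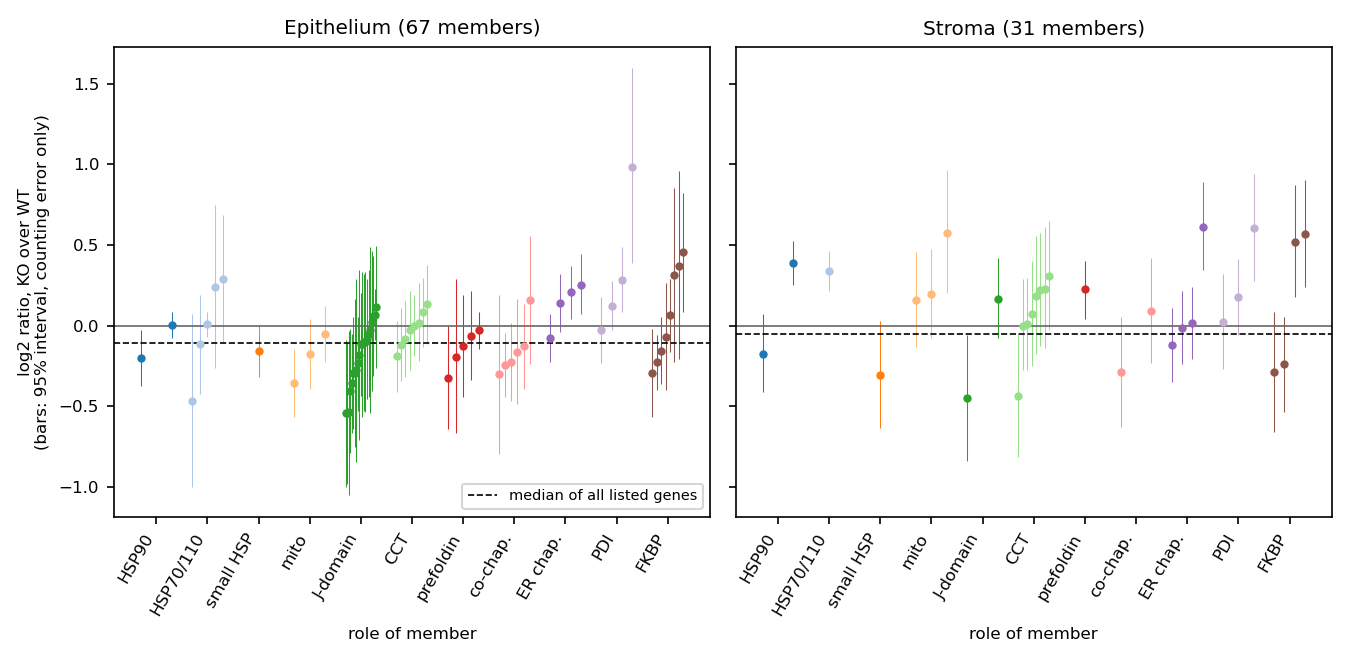
Log2 ratio of KO over WT for each member in epithelium (left) and stroma (right), grouped by role, with 95% intervals that cover counting error only; the dashed line is the median of all listed genes. In epithelium most members lie at or just below 0 with Pdia4 highest at 0.98, and in stroma 22 of 31 lie above 0.

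In stroma, too, no member was called between genotypes, where 1.51% of all 1191 listed genes were. The lowest adjusted p of the 31 members listed was 0.878 in the authors' deposited table, for Pdia3. Members higher in KO numbered 22 of 31 (71.0%), against 45.7% of all genes, with a median log2 of 0.16 against -0.05. The ratios ran from -0.45 to 0.61 on the log2 scale. Intervals excluded 1 for 8 members higher and 2 lower in KO, a count not set beside one over all listed genes. The 27 members with both averages above 1 had a median of 0.17.

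Hspa5 had the highest ratio, with 230 UMIs in KO stroma against 150 in WT, 1.53-fold (1.27 to 1.85; adjusted p 0.886 in the authors' deposited table). Its KO stroma level was the highest of the 4 pools. Pdia3 had 158 and 104 UMIs, 1.52-fold (1.21 to 1.92). Apart from Hspa5, the listed genes with an ER stress element did not share this size. Hsp90b1 had 252 and 250 UMIs, Calr 250.5 and 253, Canx 231 and 251, and Pdia6 146 and 144. Their median log2, Hspa5 included, was 0.01, and P4hb had 245 and 217 UMIs. Plasma cell markers were 1.48-fold higher in sum in WT stroma, 6 of 7 lower in KO and none called. Their part in these values was not tested.

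Hspd1 had 119 UMIs in KO stroma against 80 in WT, 1.49-fold (1.15 to 1.95; adjusted p 0.939 in the authors' deposited table), and was listed only through its KO average. The other mitochondrial chaperones were also higher in KO stroma, Hspe1 at 182 against 159 UMIs and Hspa9 at 154 against 138. Transcripts encoded by the mitochondrial genome were higher in KO stroma as well, 8 of 10 with a median log2 of 0.32 and none called. Fkbp4 had 156 and 105 UMIs, 1.48-fold (1.18 to 1.87), and Fkbp1a 135 and 94, 1.43-fold (1.13 to 1.83). Hsp90ab1 had 780.3 and 596 UMIs, 1.31-fold (1.19 to 1.44), and Hspa8 910.1 and 719, 1.27-fold (1.16 to 1.38), the narrowest intervals of the family. Pfdn5 stood at 428 and 366 UMIs, and 7 of 8 CCT subunits were higher in KO with a median log2 of 0.13.

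On the other side, Dnaja2, a cytosolic HSP70 partner, had 69.6 UMIs in KO stroma against 95 in WT, a WT level 1.37-fold higher (1.04 to 1.78). Cct3 was the exception in its ring, with 72.6 and 98 UMIs, 1.35-fold higher in WT (1.03 to 1.76). Both genes, like Fkbp9, were listed here only through the WT average, where they were higher, and with centring on the median listed gene the interval of Cct3 included 1. Hspb1 had 98.9 and 122 UMIs, Bag6 94.4 and 115, and Fkbp9 81.0 and 99, with intervals that included 1.

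Marker RNA of epithelium and smooth muscle differed between the stromal pools in the same comparison. The 6 listed simple epithelium markers summed to 961 UMIs in KO stroma against 420 in WT, 2.29-fold, 6 of 6 higher, none called and none at 0, beside 2986 in KO epithelium and 3338 in WT epithelium. Smooth muscle markers were lower in KO stroma for 9 of 9, 5 of them called, with a sum 2.11-fold higher in WT. In KO stroma the levels of Fkbp4, Hspd1, Hsp90ab1 and Hspa8 lay between those of the WT pools. Hspb1, at 98.9 UMIs, was lower in KO stroma than in either WT pool, and Hspa5, Pdia3 and Fkbp1a were higher than in either. Over all 31 members, KO stroma lay between the WT pools for 18 (58.1%), above both for 6 and below both for 7, and over all 1167 genes it lay between them for 53.9%. The part of cell mixture in these ratios was not tested, and the comparisons with WT stroma share that pool.

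**Figure D4:**
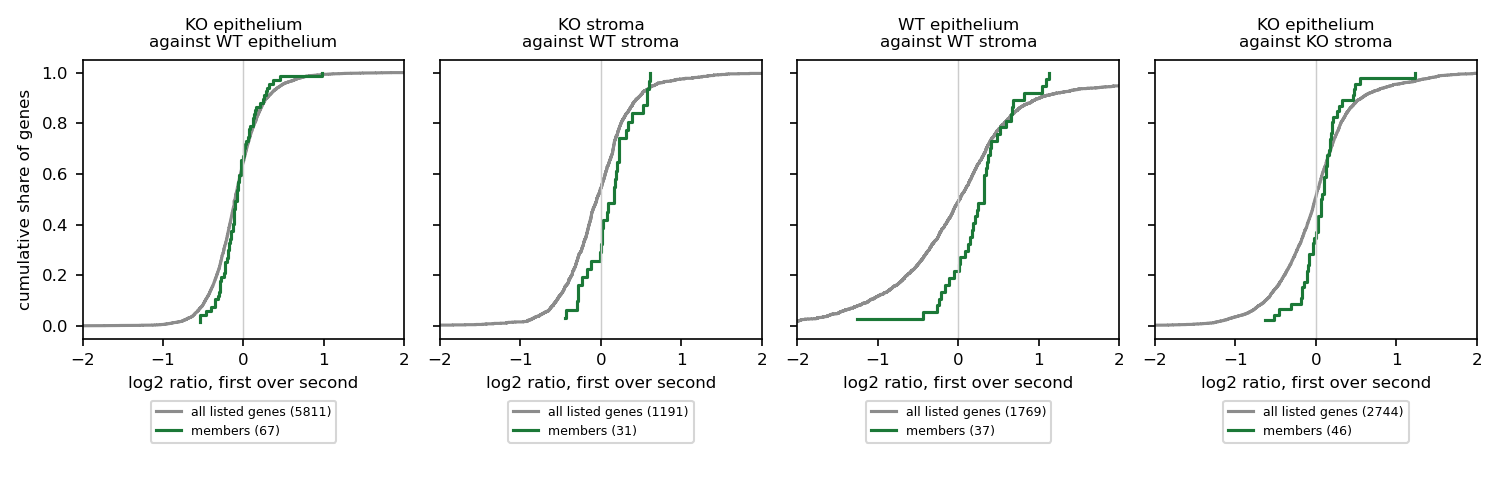
Cumulative share of genes by log2 ratio for the members (green) and all listed genes (grey) in each comparison, drawn from -2 to 2; a curve to the right lies toward the first-named pool. At the middle of their range the member curves lie to the right of the grey curves in KO against WT stroma (medians 0.16 and -0.05) and in WT epithelium against WT stroma (0.31 and 0.02), where the curves cross at the upper end, and near them in KO against WT epithelium.

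Other genes of protein folding were taken from 9 lists, and no member of any was called between genotypes in either compartment. This was 0 of 139 listed genes in epithelium and 0 of 38 in stroma. Over all listed genes 0.12% and 1.51% were called, and at such shares a lack of calls says little about these lists. In KO against WT epithelium, regulators of the unfolded protein response, which sense and signal ER load, were higher in KO for 1 of 10 listed genes (median log2 -0.23). ER-associated degradation was higher for 2 of 19 (-0.13), ER entry and translocation for 7 of 23 (-0.07), N-glycosylation for 11 of 18 (0.04) and mitochondrial chaperone partners for 1 of 13 (-0.20). The median over all listed genes was -0.10. Collagen folding and hydroxylation genes were higher for 4 of 8 (-0.02), other ER oxidoreductases and prolyl isomerases for 5 of 15 (-0.12), heat shock factors with other cytosolic partners for 7 of 25 (-0.07) and prefoldin-like and chaperonin partners for 0 of 8 (-0.10).

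In KO against WT stroma fewer of these genes were listed. ER entry and translocation was higher in KO for 3 of 13 (median log2 -0.12), heat shock factors with other cytosolic partners for 3 of 8 (-0.07) and N-glycosylation for 4 of 6 (0.01). Each remaining list had at most 3 listed genes.

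Between the WT compartments, 3 of 51 listed partner genes were called (5.88%, against 28.8% of all listed genes). Btf3, a subunit of the nascent polypeptide-associated complex, was 1.63-fold higher in epithelium (1.41 to 1.89; adjusted p 0.0345 in the authors' deposited table). Herpud1, an ER membrane protein of the degradation pathway, was 1.73-fold higher in stroma (1.35 to 2.22; adjusted p 0.047 in the authors' deposited table). Ube3a, a ubiquitin ligase, was 2.86-fold higher in stroma in WT (2.18 to 3.75) and 2.00-fold higher in stroma in KO (1.56 to 2.56), with adjusted p of 2.18e-05 and 0.0258 in the authors' deposited tables. In the KO contrast Ube3a was the only call among 81 listed partner genes (1.23%, against 9.88% of all listed genes).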

How the data were processed

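Cryosections of 10 µm from 4 WT and 4 KO uteri were used for Visium libraries, as the labels' protocols describe. Reads were handled on GRCm38, per the submitters' processing notes. How they were aligned, how spots were assigned to compartments, the handling of reads shared by near-identical genes (Hspa1b and Hspa1a, processed copies of Hspa8 or Hspe1) and the test were not given in the sources used here. Any gene used to assign spots would not count as a result between epithelium and stroma.

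Per the file headers, each of the 4 deposited tables gives an average signal per group and log2 fold changes, and the authors' deposited adjusted p-value (FDR). Averages are pooled over animals, and the p-values may measure spread between spots. Pooled UMI sums were recovered by solving the size factor sums from the deposited log2 values, which carry a pseudocount of 1. Averages multiplied by these sums gave whole numbers, to within 0.01, for 100% of genes. A pool's sums differed between tables for 0 genes. Folds are ratios of scaled sums without a pseudocount, tested on simulated data. Visium captures transcript ends, so UMIs were not divided by length, and levels are compared between pools within a gene.

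Members and lists were chosen with earlier results of these data known. Named were called members, the 3 of highest mean level per role, and in each genotype comparison the 5 per direction with the largest log2 ratio among members with at least 50 UMIs; members in the promoter account are named beyond this rule. Partner genes were named where called. Alternatives covered thresholds of 0.01 and a log2 fold of 1, removal of the lowest 25% of genes, the deposited log2, centring and total scaling. Medians over members with both averages above 1 were added after the data were seen. Python 3.11.15, NumPy 2.4.6, SciPy 1.17.1, pandas 2.3.3 and matplotlib 3.10.9 were used.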

Additional observations from a re-analysis of the deposited data

How the results depend on the processing

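The members' median log2 ratio kept its direction under the alternatives tried in all comparisons but KO against WT epithelium. There the median of -0.08 became 0.022 when ratios were centred on the median listed gene, so its sign rests on the scaling, and -0.15 when sums were scaled by the totals over genes listed in all 4 tables. The counts in that comparison rest on the scaling too: the members with an interval that excluded 1, 5 higher and 11 lower in KO, became 11 and 2 with centring and 4 and 18 with total scaling, alternatives added after the data were seen. The log2 ratios of Hspa8 and Hsp90ab1 became 0.11 each with centring. In KO against WT stroma the 2 lower members became 1 with centring. In WT epithelium against WT stroma the 6 calls became 4 at an adjusted p of 0.01, 4 at a log2 fold of at least 1 and 5 without the lowest 25% of genes, and the counts of calls in the other comparisons stayed at 1, 0 and 0. No paired analysis was possible because only pools over animals were used, so the planned replicate block and the removal of single animals were not run. Intervals of single genes cover counting error only.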
